A study of Mus musculus with 12 samples.

Results

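The scavenger receptor genes described here were Msr1, Cd36, Marco, Cd163, Stab1, Scarb1, Olr1, Colec12 and Cd5l, 9 of the 56941 genes counted. They were found by matching the Ensembl identifiers of the count tables to mouse gene symbols. RNA was sequenced from bone marrow-derived macrophages of wild-type (WT) C57BL/6J mice and of mice lacking the microRNA miR-210 (miR-210 KO), as unstimulated M0 cells and as M2 cells given interleukin-4 (IL-4), with 3 libraries in each of the 4 groups. Monocytes selected from marrow were grown for 7 days in medium with 20% serum and 30% L929-conditioned medium, a source of M-CSF, and M2 cells then received IL-4 at 20 ng/mL for a further 72 h. According to the paper, control wells were otherwise treated alike but had no IL-4. The KO mice came from crosses of a miR-210 floxed allele with a Gata-1 Cre line, were bred with the WT mice from heterozygous parents, and lacked the gene in the whole animal, so that the deletion was not limited to macrophages. The sources used here did not give the age or sex of the mice, nor which mouse gave which library, so p-values measure the spread between these libraries. Each group also carried a batch name of its own in the labels, so that any batch effect cannot be told apart from the group.

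Scavenger receptors are surface proteins that bind modified lipoproteins, apoptotic cells, microbes and other polyanionic or damaged ligands, and most of them take the ligand into the cell. They are sorted into classes by structure and not by ligand. Class A holds Msr1, Marco and Colec12, class B holds Cd36 and Scarb1, class E holds Olr1 (LOX-1), class H holds Stab1 (stabilin-1) and class I holds Cd163. Cd5l, also called AIM, is a secreted protein of macrophages built from the same cysteine-rich domains as Cd163. In macrophages these proteins are known for the uptake of oxidized LDL that gives rise to foam cells, and several are used as markers of tissue-resident or alternatively activated cells.

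The mature strands of the deleted microRNA are shown because pairing to their seeds would be the direct route from miR-210 to a receptor transcript. Capitals mark the seed, bases 2 to 8 from the 5′ end (RefSeq, GRCm38.p6).
mmu-miR-210-3p: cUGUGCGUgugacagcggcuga
mmu-miR-210-5p: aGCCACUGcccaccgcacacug
In the longest 3′ UTR annotated for each gene (GENCODE vM39, GRCm39), 0 of the 9 receptor genes held the 7-base match to the miR-210-3p seed, which was present in 7.5% of 11336 genes tested. The 6-base match, to bases 2 to 7, occurred in 1 of the 9, Scarb1, against 21.8% of the tested genes. For the passenger strand miR-210-5p, the 7-base match occurred in 3 of the 9 genes, Cd36, Cd163 and Colec12, and in 30.9% of the tested genes. The Cd36 and Cd163 sites are shown with the match in capitals. The Cd36 site lies in a 3′ UTR annotated for that gene at chr5:18031855-18031883 on the minus strand. The Cd163 site lies in a 3′ UTR annotated for its gene at chr6:124294502-124294530 on the plus strand (both GRCm39).
Cd36 site: actagcaagaaCAGTGGCtgaatactgat
Cd163 site: ttcactatgctCAGTGGCgcccccgctag
A match describes the letters only. Both sites lie in the annotated transcript with the longest 3′ UTR, which for neither gene is the Ensembl canonical transcript. They lie well inside the genes, which end in their own direction at 17986432 (Cd36) and 124307560 (Cd163). The counts do not show which form the macrophages made.

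Start-site sequences are shown for the receptor genes with the clearest response to IL-4 among those with a RefSeq entry, Cd36 and Olr1, which were higher in M2, and Stab1 and Cd5l, which were lower. Each runs from 250 bases before to 50 bases after the annotated start (GRCm38.p6, read in the direction of the gene). The letters TTC and GAA with any 4 bases between them, the usual form of a site for STAT6, the transcription factor activated by IL-4, were searched for. They read the same on both strands and are in capitals where found.
Cd36 (chr5:17835847-17836146, minus strand): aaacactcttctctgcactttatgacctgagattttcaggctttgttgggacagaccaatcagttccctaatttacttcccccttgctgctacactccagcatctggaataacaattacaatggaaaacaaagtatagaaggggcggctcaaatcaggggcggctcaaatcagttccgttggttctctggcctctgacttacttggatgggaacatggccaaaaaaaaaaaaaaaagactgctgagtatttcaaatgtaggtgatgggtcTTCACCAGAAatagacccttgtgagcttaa
Olr1 (chr6:129507116-129507415, minus strand): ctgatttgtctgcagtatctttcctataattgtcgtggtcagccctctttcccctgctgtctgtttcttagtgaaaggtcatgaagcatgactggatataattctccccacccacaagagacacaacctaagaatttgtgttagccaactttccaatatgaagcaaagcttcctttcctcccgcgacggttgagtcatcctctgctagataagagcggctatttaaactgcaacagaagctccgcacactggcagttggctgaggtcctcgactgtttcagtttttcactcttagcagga
Stab1 (chr14:31168592-31168891, minus strand): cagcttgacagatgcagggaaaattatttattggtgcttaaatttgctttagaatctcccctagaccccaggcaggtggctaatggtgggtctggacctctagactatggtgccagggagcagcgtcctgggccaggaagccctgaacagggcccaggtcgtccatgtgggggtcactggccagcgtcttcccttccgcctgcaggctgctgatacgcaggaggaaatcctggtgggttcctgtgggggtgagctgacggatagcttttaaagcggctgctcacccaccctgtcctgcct
Cd5l (chr3:87357631-87357930, plus strand): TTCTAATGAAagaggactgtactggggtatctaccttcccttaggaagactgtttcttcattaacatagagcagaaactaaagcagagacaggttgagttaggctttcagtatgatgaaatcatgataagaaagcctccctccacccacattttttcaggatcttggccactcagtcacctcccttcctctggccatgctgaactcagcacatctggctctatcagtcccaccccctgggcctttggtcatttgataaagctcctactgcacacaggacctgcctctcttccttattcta
The STAT6 letters occurred in Cd36, from base 20 after the start, and in Cd5l, from base 250 before it, in 2 of the 6 receptor genes with an entry and in 6.95% of 32851 promoters of the same length. One of these genes rose with IL-4 and the other fell. The letters GAGGAAGT, a core site of the macrophage factor PU.1, searched on both strands, were not in these windows of the 6 genes and were in 3.2% of promoters.

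The labels were first checked against the data. Mir210 (ENSMUSG00000065551, chromosome 7, 140801297 to 140801406, GRCm39) was counted 1, 3 and 5 times in WT M0 cells and 1, 2 and 1 times in WT M2 cells, and had no count in any of the KO libraries. These few counts agree in direction with the genotype labels. Macrophage genes were abundant in every library, with Csf1r, the M-CSF receptor, at 763 to 976 CPM (counts scaled to library size with the TMM normalization of edgeR, over all 12 libraries). In each genotype 4 of 7 such genes passed with IL-4 by the test given below, against 35.4% of all genes in WT and 28.4% in KO. Mertk, Fcgr1 and Lyz2 fell in both, while Adgre1 passed as lower in KO and Itgam as higher in WT. These last genes moved the same way in the other genotype, under the limit on the fold change. The log2 fold change was -0.248 for Adgre1 in WT (adjusted p = 0.00997, edgeR) and 0.205 for Itgam in KO (adjusted p = 0.0482). The IL-4 response genes Mrc1 and Retnla each rose in both genotypes. Retnla, a secreted protein induced by IL-4, had 0 counts in all M0 libraries and was at least 1300-fold higher in WT M2 and at least 1240-fold higher in KO M2, taking 3 counts per library as the floor. The magnetic selection was directed at erythrocytes, lymphocytes, neutrophils and dendritic cells, and genes of these cells were scarce next to macrophage genes. The 7 neutrophil genes together reached at most 5.78 CPM, the 5 T cell genes 5.33 CPM, the 4 B cell genes 10.2 CPM the 4 erythroid genes 3.89 CPM and the 6 dendritic cell genes 19.3 CPM, against a sum of at least 7284 CPM for the 7 macrophage genes. Library totals ran from 7930525 counts (WT M0, library 1) to 10167695 (KO M0, library 2). Most M0 libraries of a group differed more from each other than M2 libraries did, with a chi-square per degree of freedom of 2.9 to 9.85 between M0 pairs and 1.89 to 4.81 between M2 pairs. In 3 groups 1 library stood apart. Library 2 of WT M0 was at 8.45 and 6.2 from the others, which were at 2.9 from each other. Library 2 of KO M0 was at 9.85 and 8.42, against 6.63 for the other pair, and library 3 of KO M2 at 3.96 and 4.81, against 1.89.

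Before IL-4, the receptor transcripts covered a wide range of levels. Per kilobase of the Ensembl canonical transcript, mean levels in WT M0 cells were 563 CPM per kb ± 4.46 (SD, n = 3) for Msr1, 246 ± 11.6 for Cd36 and 114 ± 21.5 for Stab1. Cd5l followed at 34.3 ± 10.7 CPM per kb and Scarb1 at 14.6 ± 0.748. Colec12 (3.23), Cd163 (1.55) and Marco (0.322) were low, and Olr1 had no counts. No 2 neighbours in this order overlapped between libraries in WT M0. In WT M2 cells the order was Msr1 (598 CPM per kb), Cd36 (484), Stab1 (30.8), Scarb1 (19.8), Cd5l (5.86), Colec12 (4.36), Olr1 (1.18), Cd163 (0.925) and Marco (0.0621). There, the ranges of Olr1 and Cd163 overlapped between libraries, whereas those of the other neighbours did not. The order depends on the length used. With the merged length of all annotated exons, Stab1 (88.4 CPM per kb) lay above Cd36 (68.3) in WT M0, and in WT M2 Cd36 and Msr1 were nearly equal (134.4 and 134.3) and Cd5l (5.86) lay above Scarb1 (4.86).

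**Figure D1:**
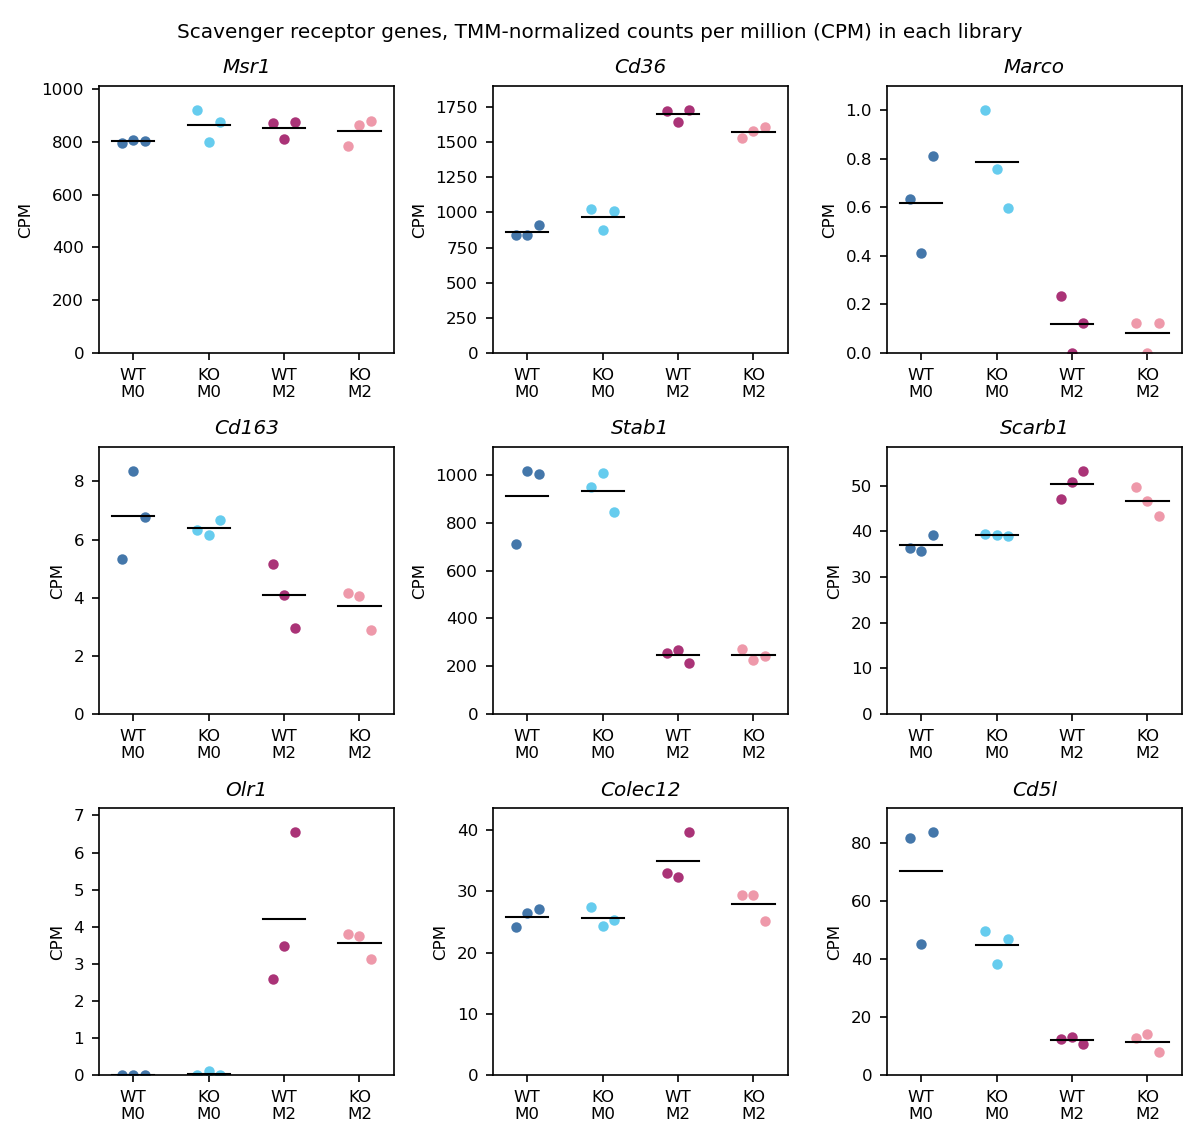
TMM-normalized CPM of each receptor gene in the 12 libraries, with the y axis of each panel starting at 0. Points are libraries, 3 per group, and the bar is their mean. Cd36, Scarb1 and Olr1 were higher in all M2 libraries, Stab1, Cd163, Marco and Cd5l were lower, and Msr1 ranged from 785 to 919 CPM over all groups.

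IL-4 separated the receptors. In WT cells, Cd36, Scarb1 and Colec12 rose and Stab1, Cd5l and Cd163 fell. Of the 9 receptor genes 8 passed the filter on low counts. Olr1 did so through the M2 libraries alone, where it was high, and is left out of the counts that follow. Of the other 7, 6 passed the test, 3 higher and 3 lower (edgeR quasi-likelihood test, Benjamini-Hochberg adjusted p under 0.05, change of more than 1.2-fold in either direction, and for IL-4 also a protein-coding gene whose normalized counts averaged over 10). Over all genes 35.4% passed the same rule in WT, 18.4% higher and 17% lower. In KO cells 4 of 7 passed, Cd36 higher and Stab1, Cd5l and Cd163 lower, against 28.4% of all genes, 14.3% higher and 14% lower. The median log2 fold change of these 7 genes was 0.094 in WT and -0.038 in KO, and that of all genes -0.001 and -0.008. The summed level of 6 dendritic cell genes was 0.515 to 1.45 CPM in M0 and 11.2 to 19.3 CPM in M2 libraries, most of it Zbtb46, while Flt3 and Siglech had almost no counts. These cells were a target of the selection before culture, and their part in these changes was not tested. In bulk RNA, fewer cells that express a gene and less RNA per cell cannot be told apart.

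The class B receptors rose in WT. Cd36 (ENSMUSG00000002944, chromosome 5, 17986432 to 18094067), which takes up oxidized LDL and long-chain fatty acids, stood at 837, 840 and 909 CPM in WT M0 libraries and 1720, 1643 and 1726 CPM in WT M2 libraries. In KO cells it went from 1025, 873 and 1012 CPM to 1529, 1575 and 1607 CPM. All M2 libraries lay above all M0 libraries of both genotypes. The log2 fold change was 0.983 ± 0.065 (SE, adjusted p = 4.02e-08, edgeR) in WT and 0.695 ± 0.08 (adjusted p = 1.79e-05) in KO. Scarb1 (ENSMUSG00000037936, chromosome 5, 125353547 to 125418176), the HDL receptor SR-BI, moved less. It had 36.4, 35.6 and 39.2 CPM in WT M0 and 47.1, 50.8 and 53.1 CPM in WT M2, and 39.3, 39.1 and 39.0 CPM in KO M0 and 49.6, 46.6 and 43.4 CPM in KO M2. The groups did not overlap in either genotype. The log2 fold change was 0.445 ± 0.079 in WT (adjusted p = 0.00039, edgeR). In KO it was 0.25 ± 0.087 with an adjusted p of 0.0423, under the limit on the fold change; it passed without KO M2 library 3 (0.285, adjusted p = 0.0402).

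The class E receptor Olr1 (ENSMUSG00000030162, chromosome 6, 129462207 to 129484128), which binds oxidized LDL, was detected almost only after IL-4. No WT M0 library held a count, and the WT M2 libraries held 22, 33 and 53 (2.59, 3.47 and 6.55 CPM), at least 12.7-fold higher against a floor of 3 counts per library. In KO cells 1 count was seen over the M0 libraries, in library 2, and 31, 36 and 25 counts in the M2 libraries. The ratio of the summed counts, scaled to library size, was 106, with an exact 95% interval of 18.5 to 4220 that covers counting error only. Since the gene entered the fit only through M2, its p is not given. After IL-4, Olr1 remained 1 of the least abundant members, at 1.18 CPM per kb in WT M2.

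The class A receptors did not move together. Msr1 (ENSMUSG00000025044, chromosome 8, 40034726 to 40095714), the macrophage receptor for acetylated LDL, had 794, 806 and 803 CPM in WT M0 and 871, 811 and 874 CPM in WT M2, and 919, 799 and 876 CPM in KO M0 and 785, 863 and 877 CPM in KO M2. The log2 fold change with IL-4 was 0.094 ± 0.062 in WT (adjusted p = 0.237, edgeR) and -0.038 ± 0.08 in KO (adjusted p = 0.756). In WT the M2 libraries were all above the M0 libraries by a small margin, and in KO the groups overlapped. Marco (ENSMUSG00000026390, chromosome 1, 120402267 to 120432753), a receptor for bacteria and particles, was near the limit of detection and did not pass the filter. In WT cells the M0 libraries held 5, 4 and 8 counts and the M2 libraries 2, 0 and 1, a ratio of M0 to M2 of 5.39 (exact 95% interval 1.56 to 28.7, counting error only). In KO cells the counts were 9, 8 and 6 in M0 and 1, 0 and 1 in M2, a ratio of 10.0 (2.47 to 87.6). In both genotypes all M2 libraries had fewer counts than all M0 libraries.

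Colec12 (ENSMUSG00000036103, chromosome 18, 9707593 to 9882644), a class A member with a collagen-like stalk and a lectin domain, rose with IL-4 in WT. It had 24.1, 26.5 and 27.0 CPM in WT M0 and 32.9, 32.4 and 39.7 CPM in WT M2 (log2 fold change 0.434 ± 0.099, adjusted p = 0.00257, edgeR). In KO it had 27.5, 24.3 and 25.2 CPM in M0 and 29.3, 29.3 and 25.1 CPM in M2, and the groups overlapped (0.126 ± 0.104, adjusted p = 0.393).

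Stab1 and the cysteine-rich members fell in both genotypes. Stab1 (ENSMUSG00000042286, chromosome 14, 30860970 to 30890598), a clearance receptor of sinusoidal endothelium and of some macrophages, had 711, 1015 and 1003 CPM in WT M0 and 257, 269 and 213 CPM in WT M2. In KO cells it had 949, 1007 and 843 CPM in M0 and 274, 226 and 242 CPM in M2. Each M2 library was far below each M0 library. The log2 fold change was -1.88 ± 0.127 in WT (adjusted p = 4.8e-08, edgeR) and -1.92 ± 0.095 in KO (adjusted p = 9.17e-09). Of 5 endothelial genes, 2 were tested with IL-4 and moved in opposite directions. Kdr, the most abundant, fell (31.6 to 9.64 CPM in WT, log2 fold change -1.7 in WT and -1.07 in KO), and Pecam1 rose (1.41 to 7.38 CPM in WT, 2.37 and 1.59). Cdh5, Tek and Lyve1 did not pass the filter. The sum of the 5 was 25.2 to 39.4 CPM in M0 libraries and 15.9 to 20.2 CPM in M2 libraries, and the part of these cells in the Stab1 result was not tested.

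Cd5l (ENSMUSG00000015854, chromosome 3, 87265182 to 87278380) had the largest fall of the tested members in WT, and in KO a fall close to that of Stab1. It had 81.7, 44.9 and 83.6 CPM in WT M0 and 12.2, 13.0 and 10.6 CPM in WT M2, and 49.7, 38.3 and 46.8 CPM in KO M0 and 12.6, 14.0 and 7.87 CPM in KO M2. The log2 fold change was -2.53 ± 0.21 in WT (adjusted p = 3.48e-07, edgeR) and -1.95 ± 0.17 in KO (adjusted p = 1.48e-06). Cd163 (ENSMUSG00000008845, chromosome 6, 124281606 to 124307560), the receptor for haemoglobin-haptoglobin complexes, was scarce. It had 5.33, 8.35 and 6.79 CPM in WT M0 and 5.18, 4.10 and 2.96 CPM in WT M2, and 6.33, 6.17 and 6.66 CPM in KO M0 and 4.16, 4.07 and 2.87 CPM in KO M2. The groups did not overlap, although in WT the highest M2 library and the lowest M0 library were close. The log2 fold change was -0.742 ± 0.23 in WT (adjusted p = 0.0167, edgeR) and -0.779 ± 0.206 in KO (adjusted p = 0.0103). The WT call was lost without M0 library 2 (adjusted p = 0.0531) or without M2 library 3 (adjusted p = 0.0775).

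**Figure D2:**
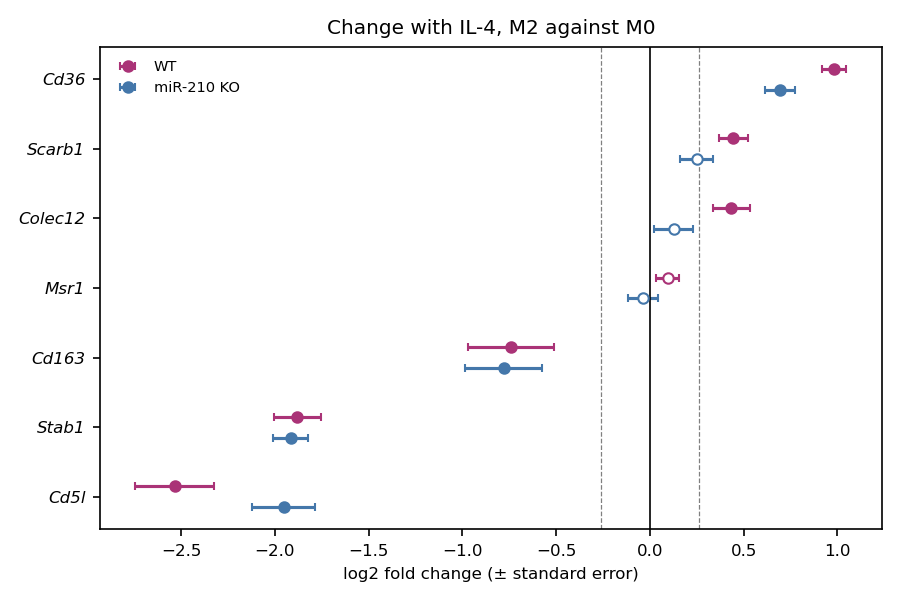
Log2 fold change of M2 against M0 cells for 7 receptor genes in WT and miR-210 KO cells, as points with standard errors (3 libraries per group). Filled points passed the test, and dashed lines mark the limit of 1.2-fold in either direction. Stab1 and Cd163 had nearly the same fall in both genotypes, and the Cd36 change was 0.983 in WT and 0.695 in KO. Olr1 and Marco are not drawn, since a group of each had almost no counts.

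Between miR-210 KO and WT cells no receptor gene passed the threshold with edgeR as fitted here. Of the other edgeR settings, 3 called Cd5l in M0 (no filter on low counts, the library number as a replicate block, and without WT library 2). In M0 cells 0 of 7 tested passed the rule without the limits added for IL-4, against 0.461% of all genes (65 of 14089, 0.22% higher and 0.241% lower), and 1 of 7, Cd5l, had an unadjusted p under 0.05, as had 1410 of all genes. In M2 cells 0 of 8 passed, against 0.98% of all genes (137 of 13980, 0.408% higher and 0.572% lower), and 2 of 8, Cd36 and Colec12, had an unadjusted p under 0.05, as had 1498 of all genes. With DESeq2, 1 member (Cd5l) passed in M0 and 0 in M2, among 219 and 140 genes in all. Leaving out 1 library moved the number of genes called with edgeR between 20 and 302 in M0, the latter without WT library 2, and between 53 and 215 in M2, the latter without KO library 3. At a share of called genes this low, a count of 0 among 7 or 8 genes is near the background. The median log2 fold change of the tested members was 0.036 in M0 and -0.107 in M2, and that of all genes 0 and 0.002.

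Among the members, Cd5l had the largest difference between genotypes. Its mean in M0 cells was 44.9 CPM in KO and 70.1 CPM in WT, a log2 fold change of -0.64 ± 0.197 (unadjusted p = 0.00744, adjusted p = 0.247, edgeR quasi-likelihood test). The WT libraries split, with library 2 at 44.9 CPM inside the KO range of 38.3 to 49.7 CPM and the others at 81.7 and 83.6 CPM. Without WT library 2 the difference was -0.87 with an adjusted p of 0.00161 (edgeR). With the library number as a replicate block, also an edgeR fit, it was -0.606 with an adjusted p of 0.0169. It passed under 4 of 14 alternative settings (the others being DESeq2 and no filter on low counts). Settings among the 14 that only move the limit on the fold change keep the adjusted p of 0.247 and could not call it. Over the 14 the adjusted p ran from 1.56e-06 to 0.711 and the difference from -0.87 to -0.488. The lowest adjusted p came from the fit with no filter, whose p-values are not on the same footing (see the closing section), and the next was 0.00161. In M2 cells the Cd5l difference was -0.046 ± 0.173 (adjusted p = 0.96).

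Colec12 was lower in all KO M2 libraries (25.1 to 29.3 CPM) than in all WT M2 libraries (32.4 to 39.7 CPM). The difference was -0.314 ± 0.099 with an adjusted p of 0.197 (edgeR) and did not pass the correction. Cd36 was also lower in all 3 KO M2 libraries, by a smaller amount (-0.106 ± 0.047, adjusted p = 0.432), and in M0 cells its difference was 0.171 ± 0.089 (adjusted p = 0.577). For Msr1 the difference was 0.11 ± 0.082 in M0 and -0.012 ± 0.056 in M2, for Scarb1 0.078 ± 0.085 and -0.108 ± 0.078, for Stab1 0.036 ± 0.13 and 0.007 ± 0.083, and for Cd163 -0.104 ± 0.2 and -0.133 ± 0.236. None of these 4 genes passed in either state, and the sign of the Msr1 value in M2, of the Stab1 and Cd163 values in both and of the Olr1 value below turned when single libraries were left out. The Olr1 difference in M2 cells was -0.213 ± 0.285 (adjusted p = 0.867, edgeR), with overlapping libraries.

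**Figure D3:**
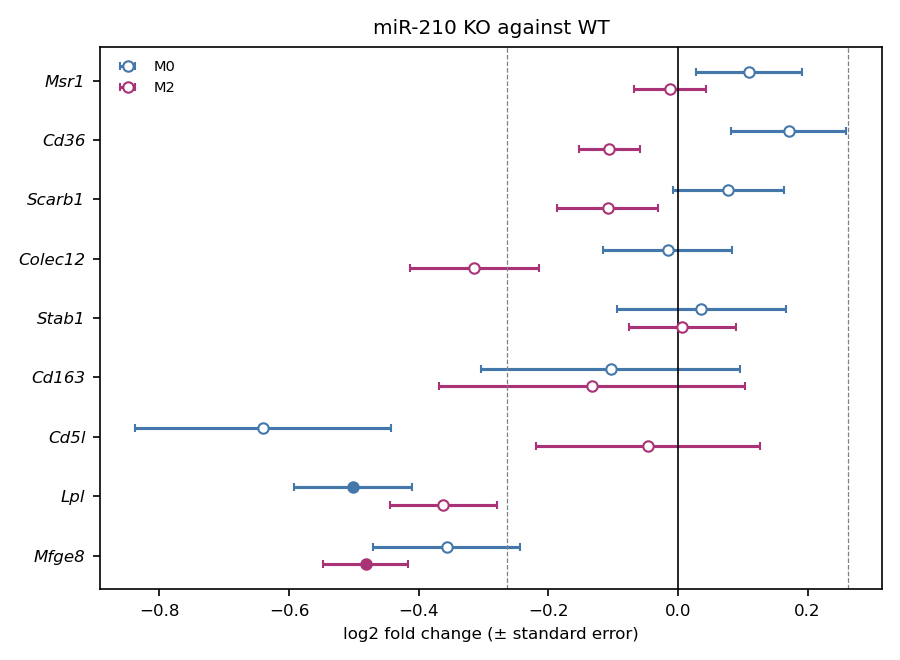
Log2 fold change of miR-210 KO against WT cells in M0 and M2, as points with standard errors (3 libraries per group), for 7 receptor genes and for Lpl and Mfge8 from the related lists. Filled points passed the test, and dashed lines mark 1.2-fold in either direction. No receptor gene has a filled point, while Lpl passed in M0 and Mfge8 in M2.

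Whether IL-4 acted to a different extent in the genotypes was tested as an interaction over all 12 libraries. With edgeR 0 of 14825 genes passed an adjusted p of 0.05, with 1327 at an unadjusted p under 0.05, and with DESeq2 72 genes passed. Without WT M0 library 2 the edgeR count was 65, and without KO M0 library 2 it was 77. Of the 8 receptor genes fitted, Olr1 is left out, since it passed the filter through M2 alone. None of the other 7 passed with either tool, nor with any 1 library left out. The Cd36 rise was smaller in KO by -0.282 ± 0.099 on the log2 scale (unadjusted p = 0.0114, adjusted p = 0.353, edgeR), the only member with an unadjusted p under 0.05. The value for Colec12 was -0.305 ± 0.145 (adjusted p = 0.557), for Cd5l 0.589 ± 0.32 (adjusted p = 0.615) and for Scarb1 -0.191 ± 0.111 (adjusted p = 0.642). So the passing of Colec12 and Scarb1 in WT and not in KO was not shown to be a difference between genotypes. For Stab1 and Cd163 the interaction was -0.032, with standard errors of 0.174 and 0.313.

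Patterns over the libraries were compared with those of 14824 other genes by Pearson correlation of log2 CPM, given as a description over 12 libraries that share the split between M0 and M2. Cd5l was followed most closely by Irgm1 (r = 0.997), Ifi211 (0.996) and Trim34a (0.995), all of them known as interferon-induced genes. Ifi211 and Trim34a belong to families of close copies, between which the counting may have split reads. Irgm1 had 455, 326 and 427 CPM in WT M0, 340, 284 and 349 CPM in KO M0, and 120 to 160 CPM in M2 libraries of both genotypes. As with Cd5l, library 2 of WT M0 was the lowest of its group and lay among the KO libraries. Ifi211 (286, 172 and 248 CPM in WT M0, 150 to 197 CPM in KO M0) had the same low library, and so had Trim34a (170, 129 and 159 CPM), although there library 2 stayed just above the highest KO library, at 126 CPM.

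**Figure D4:**
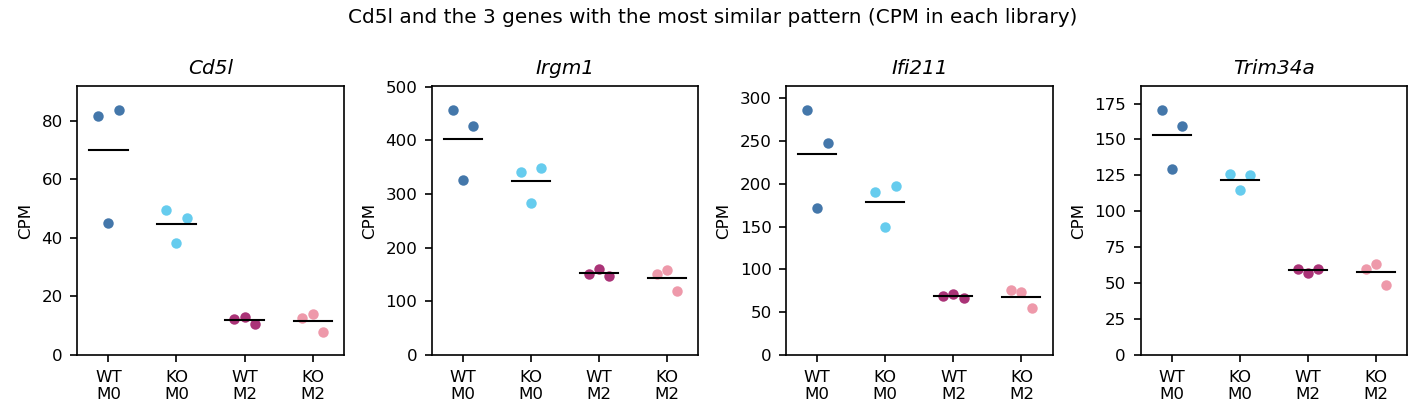
TMM-normalized CPM of Cd5l and of the 3 genes most correlated with it, in each of 12 libraries, with y axes from 0. Points are libraries, 3 per group, and the bar is their mean. In all 4 genes library 2 of WT M0, the middle point, is the lowest of its group, and the M2 libraries lie at the bottom.

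Stab1 was followed by Jade2 (r = 0.992), Sipa1 (0.991) and Siglec1 (0.990), the last a sialic acid-binding receptor of resident macrophages, which went from 3242 CPM ± 339 (SD, n = 3) in WT M0 to 734 ± 16.1 in WT M2. Cd36 was followed by Pacc1 (0.996), an acid-activated chloride channel, Pde12 and Gm16201. For Scarb1 the first gene was Rarg, a retinoic acid receptor (0.981), for Colec12 G6pdx (0.947), for Cd163 Slc25a23 (0.930) and for Olr1 Gm50151 (0.994). Olr1 and Gm50151 both had almost no counts in M0 (mean of Gm50151 0.0344 CPM in WT M0 and 2.29 CPM in WT M2). Their r thus mostly reflects the split between M0 and M2. Msr1, with little variation between libraries, had no gene above 0.849 (Rpp40).

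The related receptors and pathways were described from 3 fixed lists. Among 19 genes of other scavenger receptor classes, 10 were tested and 7 passed with IL-4 in each genotype, the same 7 genes, against 35.4% of all genes in WT and 28.4% in KO (median log2 fold change of the list -0.098 and 0.035). In WT the count was 6 with DESeq2, where 32.3% of all genes passed. It was also 6 when WT M0 library 1, WT M0 library 3 or any 1 WT M2 library was left out, where 32.1% to 34% passed. Clec7a (dectin-1, a receptor for fungal glucans) rose from 57.5, 44.9 and 52.4 CPM in WT M0 to 1111, 1126 and 1141 CPM in WT M2, a log2 fold change of 4.46 in WT and 4.24 in KO. Stab2, the paralog of Stab1, rose by 2.4 in WT and 2.53 in KO, opposite to Stab1, from 1.16 CPM to 6.17 CPM in WT. Not all of its M0 libraries reached the count the filter asks for, and without Stab2 and Ager, to which this also applied, 6 of 8 passed in each genotype. Cd44, the hyaluronan receptor, rose by 1.57 and 1.58. The members that fell were Cxcl16 (-0.68 and -0.67), Scarb2, the lysosomal relative of Cd36 (-0.544 and -0.546), Scarf1 (-0.429 and -0.503) and Scarf2 (-0.545 and -0.832). Between genotypes 0 of 10 passed in M0 and 0 of 9 in M2 with edgeR and with DESeq2, near the background of 0.461% and 0.98% of all genes. An unadjusted p under 0.05 was seen for 0 and 1 of them, and for 1410 of 14089 and 1498 of 13980 genes in all.

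Of 18 genes that handle lipoproteins and lipids behind these receptors, all were tested. In WT 10 passed with IL-4, 7 higher and 3 lower, and in KO 11 passed, 8 higher and 3 lower (median 0.116 and -0.021), against 35.4% and 28.4% of all genes. Lpl, lipoprotein lipase, which releases fatty acids from triglycerides, rose by 3.13 in WT and 3.26 in KO on the log2 scale. Pparg, a nuclear receptor that drives Cd36 transcription in macrophages, rose by 2.04 in WT and 2.63 in KO (interaction adjusted p = 0.253, edgeR). Abcg1, a cholesterol exporter, rose by 1.88 and 3.05 (interaction 1.18 ± 0.44, adjusted p = 0.392). Its WT M0 libraries were far apart, at 208, 47.9 and 98.8 CPM, against 43.0 to 57.4 CPM in KO M0, and the WT change was 2.56 without WT M0 library 1 and 1.5 without WT M0 library 2. Apoe (-0.771 and -0.661) and Fabp5 (-0.807 and -0.694) fell in both. Between genotypes 1 of 18 passed in M0, Lpl, against 0.461% of all genes, with 6 at an unadjusted p under 0.05, as had 1410 of all 14089 genes. Lpl had 267, 259 and 264 CPM in WT M0 and 194, 201 and 162 CPM in KO M0 (-0.502 ± 0.091, adjusted p = 0.0425, edgeR). In M2 it had 2222, 2010 and 2673 CPM in WT and 1742, 1666 and 1945 CPM in KO (-0.362 ± 0.083, adjusted p = 0.0508), all KO libraries lower, and 0 of 18 passed, against 0.98% of all genes (4 at an unadjusted p under 0.05, as had 1498 of all 13980 genes). In M0 the count was 0 without WT library 1, WT library 3, KO library 1 or KO library 3, where 0.139% to 0.222% of all genes passed. It was 3 without WT library 2, where 2.1% of all genes passed. In M2 it was 1 with DESeq2 (1% of all genes) or the stricter filter on low counts (0.984%). With the library number as a replicate block it was also 1 (2.07%). It was 2 without the filter (1.38%), and 1 without WT library 2 (1.06%) or KO library 3 (1.51%).

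Of 20 genes for the uptake of apoptotic cells, 16 were tested. With IL-4, 14 passed in WT, 5 higher and 9 lower, and 12 in KO, 5 higher and 7 lower (median -0.31 and -0.215), against 35.4% and 28.4% of all genes. Itgb3, the beta chain of a vitronectin receptor, rose from 1.40 CPM to 84.8 CPM in WT (log2 fold change 5.96, and 5.79 in KO). In WT it met the filter in 1 M0 library, and without it 13 of 15 passed in WT. Mfge8, the bridge from phosphatidylserine to that integrin, rose by 2.97 and 2.84, and Anxa1 by 2.26 and 2.22. The TAM receptors Axl (-2.78 and -2.59) and Mertk (-1.33 and -0.901) fell, as did Gas6, which links them to apoptotic cells (-2.05 and -1.9). Pros1, the other ligand of the TAM family, rose by 0.795 and 0.809. Between genotypes 0 of 16 passed in M0 with edgeR and with DESeq2, against 0.461% of all genes. In M2 1 of 16 passed with edgeR, Mfge8, against 0.98%. An unadjusted p under 0.05 (edgeR) was seen for 2 in M0 and 5 in M2, and for 1410 of 14089 and 1498 of 13980 genes in all. Mfge8 had 294, 316 and 298 CPM in WT M2 and 237, 215 and 196 CPM in KO M2 (-0.482 ± 0.066, adjusted p = 0.000997, edgeR), and in M0 39.0, 37.7 and 39.6 CPM in WT and 35.9, 26.8 and 28.3 CPM in KO (-0.357 ± 0.114, adjusted p = 0.265). The KO libraries were below the WT libraries in both states. In M2, Mertk (0.308, adjusted p = 0.0508, edgeR), Gas6 (0.319, adjusted p = 0.108) and Itgb3 (0.448, adjusted p = 0.123) had higher values in all KO than in all WT libraries and did not pass. Anxa1 had lower values in all KO M2 libraries (-0.126, adjusted p = 0.315, edgeR) and did not pass either. In M0 the count of this list was 2 with no low-count filter (2.03% of all genes) and 1 without WT library 2 (2.1%). In M2 it was 2 with DESeq2 (1%), 4 without the filter (1.38%) and 4 with the replicate block (2.07%). It was also 2 without WT library 2 (1.06%) and 4 without KO library 3 (1.51%). No gene of the 3 lists passed the interaction with edgeR or with DESeq2, with 0, 4 and 1 at an unadjusted p under 0.05, except that 2 of the lipid genes passed without WT M0 library 2 and that 3 lipid genes and 2 uptake genes passed without the filter on low counts. Over all genes 0.432% and 1.19% passed the interaction under these settings (65 of 15059 and 341 of 28668).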

How the data were processed

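Stranded, rRNA-depleted libraries were sequenced as paired ends. According to the submitters' processing notes, Trimmomatic, Picard, STAR and featureCounts were used with GRCm39. The raw counts per gene deposited by the authors were used as they stand. Each of 4 count tables held 2 groups, and libraries held by 2 tables had identical counts. The authors' 4 normalized tables were not used. Column names gave the group of each library but not its sample. Of 56941 gene identifiers, 56323 matched GENCODE vM39 (GRCm39).

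Each pair of groups was fitted with edgeR 4.0.16 in R 4.3.3 (TMM, filterByExpr, quasi-likelihood test), adjusted by Benjamini-Hochberg over all genes tested, and the interaction over 12 libraries. DESeq2 1.42.0 was an alternative. A standard error is the absolute log2 fold change over the square root of F. Fits were tested on simulated data. Calls used an adjusted p under 0.05 and a change above 1.2-fold, with no fold limit for the interaction. Correlations used log2(CPM + 0.5). All receptor genes were named, with by rule up to 4 called genes per list and comparison and the 3 most similar genes per member, of which only the first is printed for 5 members. Other genes named were chosen after their values were seen. The members and lists were chosen with earlier results of these data known. Not every gene of the lists is reported here by name.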

Additional observations from a re-analysis of the deposited data

How the results depend on the processing

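Of 508 log2 fold changes of receptor genes from alternatives that refit the model, 476 kept their direction and their side of the threshold, 5 passed it anew, 2 no longer passed and 25 changed sign. The IL-4 values of Olr1, which passed the filter through M2 alone, are among them. A further 86 came from alternatives that only move the threshold, so that their direction could not change, and of these 6 no longer passed and 1 passed anew. The sign changes came only from leaving out 1 library, and none was of a called value. Over those settings the difference between genotypes in M0 ran from -0.243 to 0.079 for Cd163, from -0.113 to 0.133 for Stab1 and from -0.064 to 0.026 for Colec12. In M2 it ran from -0.05 to 0.037 for Msr1, from -0.303 to 0.069 for Cd163, from -0.084 to 0.072 for Stab1, from -0.454 to 0.233 for Olr1 and from -0.223 to 0.154 for Cd5l. The Msr1 change with IL-4 in KO ran from -0.099 to 0.011, and the interaction from -0.216 to 0.164 for Cd163 and from -0.135 to 0.11 for Stab1.

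The count of receptor genes that differed between genotypes in M0 was 0, and became 1 with DESeq2, 1 without a filter on low counts and 1 with the library number as a replicate block, each time Cd5l (adjusted p = 0.0346, 1.56e-06 and 0.0169); leaving out 1 library gave 0 to 1, the latter without WT M0 library 2. It was 0 in M2 and 0 for the interaction under every alternative run. The fit without a filter can give far smaller p-values. For Abcg1 with IL-4 in WT, whose M0 libraries were far apart, the adjusted p was 1.08e-136 there and 0.000425 as fitted (edgeR). Calls and counts without the filter are therefore not on the same footing as the others. With IL-4, Olr1 is again left out, since it passed the filter through M2 alone. Of the other 7 genes, 6 passed in WT and 4 in KO. The WT call of Cd163 was lost without M0 library 2 or without M2 library 3. Scarb1 passed in KO without M2 library 3 (0.285, adjusted p = 0.0402, edgeR). Requiring an absolute log2 fold change over 1 left Stab1 and Cd5l called in both genotypes. Cd36 and Cd163 were then called in neither genotype, and Scarb1 and Colec12 no longer in WT. Lpl was not called in M0 without WT library 1, WT library 3, KO library 1 or KO library 3, and the count of 1 for its list was 2 with DESeq2, 2 with the block, 6 without the filter and 3 without WT M0 library 2. In M2 its count went from 0 to 1 with DESeq2, 1 with the stricter filter, 1 with the block, 2 without the filter and 1 without WT library 2 or KO library 3. The count for apoptotic cell uptake went from 0 to 2 in M0 without the filter, and in M2 from 1 to 2 with DESeq2, 4 without the filter, 4 with the block and 4 without KO M2 library 3.

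Over all genes, calls between genotypes moved from 65 to 219 (DESeq2), 532 (no filter), 284 (replicate block), 248 (all 12 libraries) and 20 to 302 (1 library left out) in M0, and from 137 to 140, 360, 289, 60 and 53 to 215 in M2. Deviations of same-numbered libraries from their group means correlated from -0.493 to 0.516, and some were below 0.1 in each comparison, so the numbers were not taken as pairs. The causes of these changes were not tested. Counts per library limit Marco and Olr1.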
